A study of Drosophila melanogaster with 8 samples.

Results

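P-p38, the phosphorylated and active form of the stress-activated MAP kinase p38, was located on the genome by ChIP-seq of wild-type S2 cells, an established embryonic Drosophila line with haemocyte-like properties. The genomic regions described here are those in which at least 3 of 4 separately deposited peak lists had a peak. There were 752 such shared regions among 12632 union regions (5.95%), of which 195 were called in all 4 libraries and 557 in 3. They were chosen by measured values, because peaks that overlapped by at least 1 bp on the 6 main chromosome arms (X, 2L, 2R, 3L, 3R and 4) were merged and the libraries with a peak in each merged region were counted. The number of libraries, the widths and the ranks of the peaks are therefore given as descriptions with no test, apart from 2 comparisons of control with H2O2 in the regions of all 4 libraries. Most regions were called less often, with 2246 in 2 libraries and 9634 in 1.

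The 4 libraries came from 2 groups of 2. All cells were grown at 25 °C. H2O2 cells then received 10 mM H2O2 for 30 min at that temperature, and control cells an equal volume of medium. Both groups are wild-type S2 cells, with no allele or agent beyond these in the labels. The 4 input samples, 2 per group, were not analysed here. Chromatin was immunoprecipitated from sonicated nuclei, and nothing in the labels says that replicates were separate cultures, so differences between replicates may be technical. A bulk library cannot separate more cells with P-p38 at a site from more P-p38 per cell. The identity of the cells was not tested, since peak lists hold no expression levels.

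The p38 kinases are activated by phosphorylation when cells meet oxidative, osmotic or heat stress, and they phosphorylate transcription factors and other kinases. Drosophila carries the genes p38a, p38b and p38c. In budding yeast the related kinase Hog1 is recruited to stress-responsive genes together with RNA polymerase II, so a stress kinase can be found by ChIP at the genes it acts on and along their transcribed parts.

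The lists held 4314 and 2988 control peaks and 6434 and 4019 H2O2 peaks on the arms, in the order of replicates 1 and 2. Read depth is unknown, since the files give no counts. The fold enrichment of a peak is the authors' own value over the peak caller's background, and its median was 1.63 to 1.64 in each list. Folds from separate calls do not share a scale, so each peak is given as its percentile within its own list, where 100 is the highest fold. A region takes, in each library, the percentile of its highest peak. Regions with several peaks in a library are thus ranked by the best of them. The shared regions took in 826 (19.1%) and 654 (21.9%) of the control peaks and 811 (12.6%) and 937 (23.3%) of the H2O2 peaks. Of the peaks in the top 5% of each list by fold, 51.9% and 51.3% lay in shared regions in control, and 34.7% and 66.8% did in H2O2. H2O2 replicate 1, the longest list, thus had the lowest share of its peaks and of its strongest peaks in shared regions.

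Which library was missing differed among the 557 regions called in 3. Control replicate 2, the shortest list, was missing from 270 of them. H2O2 replicate 1, the longest, was missing from 146, H2O2 replicate 2 from 77 and control replicate 1 from 64. An H2O2 library was thus the missing one in 223 regions (40.04%, Wilson 95% interval 36.0 to 44.2) and a control library in 334. The Wilson intervals here and below cover counting error only and treat regions as independent. Of all 752 shared regions, control replicates 1 and 2 called 688 and 482, and H2O2 replicates 1 and 2 called 606 and 675. Regions called by all 3 libraries that remain when 1 is left out numbered 271 without control replicate 1, 467 without control replicate 2, 335 without H2O2 replicate 1 and 271 without H2O2 replicate 2.

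Ranked by the lowest percentile among the 4 lists, the first region belonged to no protein-coding gene, although other regions were first in single lists. Hsromega, a heat-inducible long noncoding RNA gene that organises nuclear speckles, carried a region of 3117 bp (dm6, chr3R:21296352-21299468) inside its annotated span, near the end with the lower coordinate. Its peaks stood at percentiles 99.9 and 99.7 in the lists of control 1 and 2 and at 99.9 in each H2O2 list. They covered 2931 and 3098 bp in control against 2705 and 2946 bp in H2O2, and the groups overlapped. Each library called it as 1 peak.

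Heat shock and ubiquitin genes made up much of the top of the regions called in all 4 libraries, ranked by their lowest percentile. Hsc70-4, a constitutive Hsp70-family chaperone, shared a region with the ammonium transporter gene Amt, at percentiles 99.9 and 99.6 in control against 99.9 and 99.9 in H2O2. Peaks covered all of Hsc70-4 in every library, but Amt over only 2.63% and 0% in control and 27.1% and 0% in H2O2. Hsp83, which encodes the fly Hsp90, stood at 99.7 and 98.4 in control against 99.98 and 99.9 in H2O2. Its peaks covered 4449, 4640, 4366 and 4315 bp in the order control 1, control 2, H2O2 1 and H2O2 2. The polyubiquitin gene Ubi-p5E, a source of free ubiquitin, had a region of 1165 bp inside the gene (chrX:6278293-6279457), at 99.3 and 97.2 in control against 99.9 and 99.6 in H2O2. By percentile both H2O2 libraries were above both control libraries there, while by bases under peaks the groups overlapped. The other polyubiquitin gene, Ubi-p63E, had a region of 1118 bp (chr3L:3901653-3902770) at 98.9 and 98.3 in control against 96.7 and 99.5 in H2O2, where the groups overlapped. Hsp26, a small heat shock protein gene, and its neighbour CG4461 lay under 1610 bp (chr3L:9375922-9377531), with peaks of 667 and 1610 bp in control against 857 and 1518 bp in H2O2. Hsp70Ab, 1 of several near-identical Hsp70 copies whose reads may not be separable, stood at 99.4 and 98.8 in control against 96.7 and 99.8 in H2O2. By percentile the groups overlapped at Hsc70-4, Hsp26 and Hsp70Ab. At Hsp83 both H2O2 libraries were above both control libraries by percentile, while both control libraries covered more bases. Among the 195 regions of all 4 libraries, 28.7% had both H2O2 libraries above by percentile, and 25.6% had both control libraries above by bases.

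Cytoskeletal genes and a few stress and housekeeping genes filled most of the remaining places. Act5C, a cytoplasmic actin gene, lay wholly under a region of 4704 bp (chrX:5900753-5905456) at percentiles 100.0 and 99.4 in control against 99.6 and 98.1 in H2O2. At the alpha-tubulin gene alphaTub84B the peaks covered 3086 and 2883 bp in control against 3210 and 3338 bp in H2O2, so both H2O2 libraries had more bases than both control libraries. The profilin gene chic, which lay with the uncoupling protein gene Ucp4B under the fifth widest shared region (11315 bp, chr2L:5969798-5981112), showed how the same stretch was cut differently. It was 1 peak of 10442 bp in control replicate 1, 4 peaks in control replicate 2 and 6 peaks in each H2O2 library. At Xrp1, a bZIP stress transcription factor gene, and Mpc1, a mitochondrial pyruvate carrier gene, each control library had 1 peak, of 9560 and 9275 bp, while H2O2 replicates 1 and 2 had 8 and 5 peaks over 5525 and 7188 bp. Vha16-1, a subunit gene of the vacuolar proton pump, followed the same order, with 8494 and 7717 bp in control against 4618 and 6450 bp in H2O2. The gene CG2765 went the other way, with 4385 and 4415 bp in control against 5053 and 5781 bp in H2O2. Both control libraries thus covered more of the regions at Xrp1 and Vha16-1, and both H2O2 libraries more of those at alphaTub84B and CG2765. The groups overlapped by percentile at each of these regions, however. Of the 195 regions of all 4 libraries, 25.6% were ordered by bases as at Xrp1 and 15.9% as at alphaTub84B. ImpL2, which encodes a secreted binder of insulin-like peptides, had a lowest percentile of 95.9. AnxB9, an annexin gene, and r-l, a pyrimidine synthesis gene, shared the last of these 15 regions, at a lowest percentile of 95.3.

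**Figure D1:**
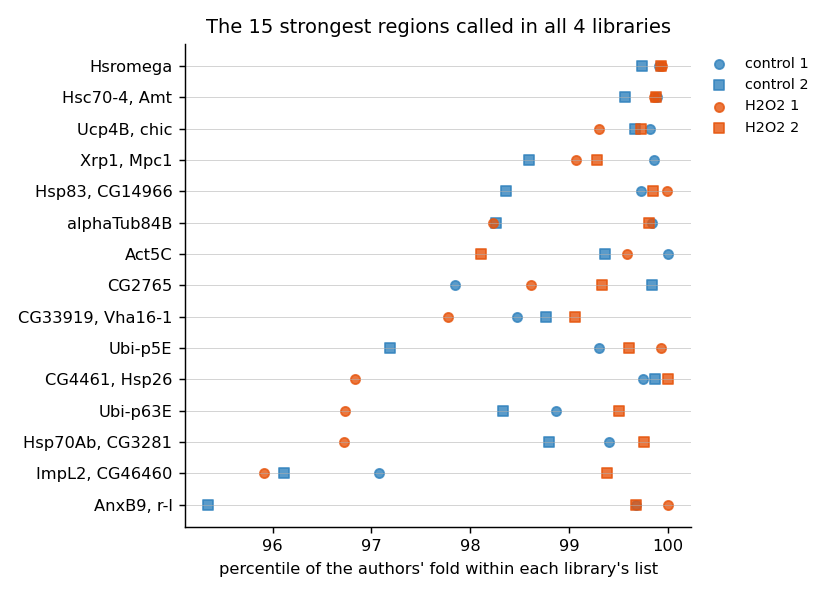
Percentile of the authors' fold within each library's own list (x axis, 100 is the highest fold of a list) for the 15 regions called in all 4 libraries with the highest lowest percentile, 1 row per region with its genes. Circles are replicate 1 and squares replicate 2, blue control and orange H2O2, and in the top 2 rows, Hsromega and Hsc70-4, all 4 points lie above 99.5.

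Shared regions were wider than regions called less often, as the merging rule favours. Their median width was 863.5 bp, with quartiles of 527 and 1662 bp and a range of 219 to 13397 bp. The median was 1347 bp for regions of all 4 libraries, 765 bp for those of 3, 510.5 bp for those of 2 and 277 bp for those of 1. More than 1000 bp were spanned by 343 shared regions (45.6%) and by 128 of the 195 regions of all 4 libraries (65.6%). Among regions called in 3 libraries, those that lacked H2O2 replicate 1 had a median of 1312.5 bp, close to the regions of all 4. Those that lacked control replicate 1, control replicate 2 or H2O2 replicate 2 had medians of 572, 673 and 720 bp. Single peaks inside shared regions had a median width of 412.5 and 426.5 bp in control, and 402 and 332 bp after H2O2, against 311, 337, 287 and 261 bp for peaks elsewhere in the same 4 lists.

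**Figure D2:**
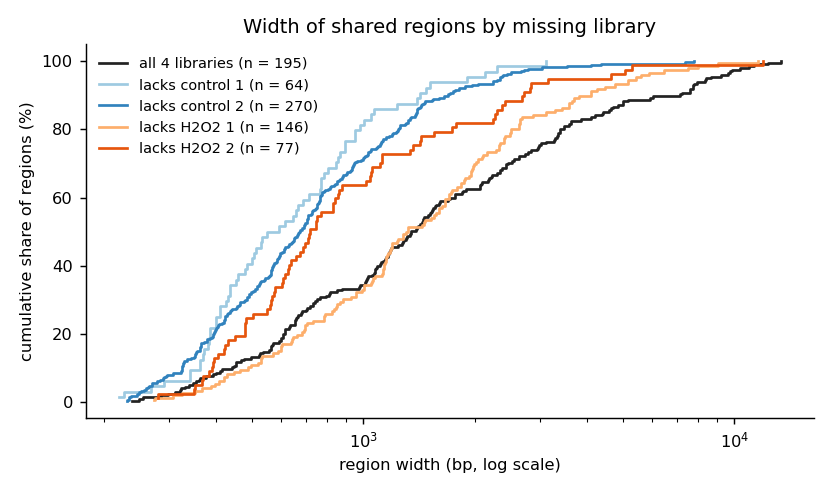
Cumulative share of regions (y axis, percent) by region width (x axis, bp, log scale) for regions called in all 4 libraries and for those lacking 1 named library. The curves of all 4 libraries (median 1347 bp) and of regions lacking H2O2 replicate 1 (1312.5 bp) run together, to the right of the other 3.

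The 5 widest regions lay over Jupiter, Cam, zfh1, KrT95D and the chic and Ucp4B pair. Jupiter, which encodes a microtubule-associated protein, had the widest (13397 bp, chr3R:11606595-11619991), with peaks over 13392 and 5022 bp in control against 7427 and 7466 bp in H2O2. Control replicate 1 had a single peak there, and the other libraries had 8, 7 and 12. The calmodulin gene Cam followed with 12350 bp, which control replicate 1 again covered with 1 peak. At zfh1, a zinc finger homeodomain transcription factor gene of the haemocyte list, the region of 11992 bp was covered over 11926 and 8407 bp in control, 228 bp in H2O2 replicate 1 and 0 bp in H2O2 replicate 2. At KrT95D the region of 11607 bp rested almost wholly on control replicate 1, which covered all 11607 bp, beside 242 bp in control replicate 2 and 354 bp in H2O2 replicate 2. The width of such a region is thus the width of 1 library's peak. The narrowest regions ran from 219 to 234 bp, and 4 of these 5 were on 2R and lay between 1385728 and 3369533.

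A region called in several libraries need not hold a base that all of them called. Of the 752 shared regions, 653 (86.8%) had at least 1 base under a peak of every calling library, with a median of 226 such bases. For the regions of all 4 libraries this held in 161 of 195 (82.6%), with a median of 252 bp. The other 34 were joined only through chains of overlapping peaks. The summits of the highest peaks lay a median of 139 to 184 bp apart between any 2 libraries, and the pairs within a group (174 bp in control, 173 bp in H2O2) lay inside the range of the pairs between groups. All 4 summits fell within 100 bp of each other in 30 of the 195 regions (15.4%).

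Of the shared regions, 565 (75.1%, Wilson 95% interval 71.9 to 78.1) overlapped a protein-coding gene, against 76.3% (74.5 to 78.0) of regions called in 2 libraries and 75.8% (74.96 to 76.67) of those called in 1. This share is close to that of the regions called less often, and it differed among the shared regions themselves. It was 84.1% (78.3 to 88.6) in regions of all 4 libraries, 91.1% (85.4 to 94.7) in those that lacked H2O2 replicate 1, and 58.9% (52.9 to 64.6) in those that lacked control replicate 2. Regions that lacked control replicate 1 or H2O2 replicate 2 had 73.4% (61.5 to 82.7) and 80.5% (70.3 to 87.8). Because the gene table has no strand and no exons, a region could be placed over a whole gene, at 1 gene end or inside a gene, and start, exon, intron and UTR were not separated.

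Whole genes lay under 40 shared regions (5.32%), 1 gene end under 109 and the inside of a gene under 416, while 187 touched no protein-coding gene. Of those over a whole gene, 26 were called in all 4 libraries and 13 lacked H2O2 replicate 1. The part is that of the merged span, and the peaks of a single library often covered less. CtsL1, wholly under a region of all 4 libraries, was covered over 100% and 99.6% in control against 3.41% and 14.1% in H2O2. The 1 whole-gene region left, over RpL41, lacked H2O2 replicate 2, and no region that lacked a control library covered a whole gene. Regions called in 2 libraries covered a whole gene in 40 of 2246 cases and regions called in 1 library in 7 of 9634, and both sets are narrower. Regions that lacked control replicate 2 touched no protein-coding gene in 111 of 270 cases, the highest such share.

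**Figure D3:**
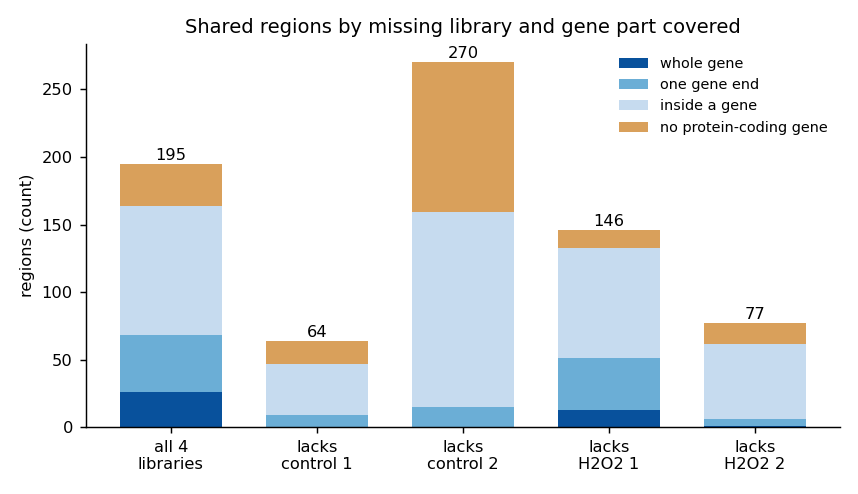
Number of shared regions (y axis) by missing library (x axis), split by the part of a protein-coding gene that their merged spans cover. Whole genes are covered by 26 regions of all 4 libraries and 13 lacking H2O2 replicate 1, and 111 of the 270 regions lacking control replicate 2 touch no protein-coding gene.

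The centromere-proximal ends of the arms are poor in genes, and the shared regions there differed with the missing library. With limits set after the lists were seen (beyond 22 Mb on 2L and X and 23 Mb on 3L, before 5.7 Mb on 2R and 4.2 Mb on 3R), 211 shared regions (28.1%, Wilson 95% interval 25.0 to 31.4) were centromere-proximal, beside 22.4% (20.7 to 24.2) of regions called in 2 libraries and 17.4% (16.7 to 18.2) of those called in 1. Only 2 of 146 regions that lacked H2O2 replicate 1 were (1.37%, 0.376 to 4.86), against 119 of 270 that lacked control replicate 2 (44.1%, 38.3 to 50.04). Regions of all 4 libraries had 45 (23.1%, 17.7 to 29.5). Away from these parts, 91.5% of 541 shared regions overlapped a protein-coding gene. The shares there were 87.7% and 82.3% for regions called in 2 and 1 libraries, which are narrower, and the effect of width was not tested. There the regions lacking control replicate 2 had 86.1% and those lacking H2O2 replicate 1 had 92.4%, so most of the gap between these 2 sets went with the centromere-proximal regions. Arm 2R held 226 shared regions, 3R 188, 3L 177, 2L 120, X 40 and the fourth chromosome 1, which was 5.22% to 6.48% of the union regions on each arm.

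The strongest regions of each missing-library set had different neighbours. Without H2O2 replicate 1 the first was over Chchd2, which encodes a mitochondrial protein, at percentiles 98.4 and 99.9 in control and 98.9 in H2O2 replicate 2 (chrX:17148877-17150977). It was followed by eIF4A, the RNA helicase of translation initiation, Adss, a purine synthesis enzyme gene, the actin gene Act42A and Xbp1, a transcription factor gene of the unfolded protein response. At eIF4A the peaks covered 4733 and 3695 bp in control and 1675 bp in H2O2 replicate 2, and at Xbp1 2412 and 2404 bp in control and 1583 bp in H2O2 replicate 2. These 5 all lay over a whole gene or a gene end.

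Of the 5 strongest regions that lacked control replicate 2, 3 touched no protein-coding gene. The first was 269 bp wide (chr3L:23113401-23113669), 9941 bp from the nearest gene end, at percentiles 97.8 in control replicate 1 and 99.8 and 99.2 in H2O2. The mucin gene Muc30E held the second inside the gene (351 bp). Mmp1, a secreted matrix metalloproteinase gene, held the fifth (7801 bp, chr2R:24677439-24685239), with peaks over 7801 bp in control replicate 1 and 5673 and 3636 bp in H2O2. Without control replicate 1 the strongest was a 949 bp region at an end of the pigment transporter gene w (white) that also touches the cell adhesion gene kirre (chrX:2795916-2796864), at 99.2 in control replicate 2 and 99.9 and 99.4 in H2O2. The next was at scyl, which encodes an inhibitor of TOR signalling, with 1906 bp in control replicate 2 and 1726 and 3059 bp in H2O2. The regions lacking H2O2 replicate 2 were the weakest at the top, with lowest percentiles of 68.1 to 86.5 over their first 5, which included RpL41, Jupiter and the paxillin gene Pax.

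Just outside the rule, the strongest regions called in 2 libraries were 234 bp on 2R (3376239 to 3376472), at percentiles 99.2 and 98.6, and 223 bp on 3R (3767688 to 3767910), at 99.6 and 98.6. Both were called in the H2O2 libraries and in neither control library. These 2 are extremes of their set. The median lowest percentile was 28.7 in shared regions, 36.3 in regions called in 2 libraries and 46.7 in those called in 1. A lowest value over more libraries tends to be lower. The rule takes in many regions that are weak in at least 1 library and leaves out some that are strong in 2.

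Within a list, shared regions did not rank alike in every library that called them. At the 195 regions of all 4 libraries the median percentile was 85.4 and 70.5 in control against 74.8 and 88.6 in H2O2. Their peaks covered a median of 874 and 554 bp per region in control and 589 and 609 bp in H2O2. Regions that lacked H2O2 replicate 1 had medians of 84.5 and 79.6 in control and 48.8 in H2O2 replicate 2, where they covered 1046, 834 and 373 bp. In those that lacked control replicate 2 the order differed, with 46.1 in control replicate 1 and 75.1 and 55.0 in H2O2. The other H2O2 library thus ranked the first set lower than either control library did, although the rule required a peak in it. That set was chosen by calls in both control libraries and by the lack of one in H2O2 replicate 1. The ranks also come from lists of different length, so they do not measure a change with H2O2.

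The regions of all 4 libraries required a peak in every library of both groups, so control and H2O2 could be set side by side there. The rule used these same peaks, so the comparison covers only how far and how high the called peaks reached, not whether a peak was present. The median number of bases under peaks per region was 714 ± 226 in control and 599 ± 14.1 in H2O2 (SD, n = 2 each), a difference of -115 bp that was smaller than the control spread (exact two-sided permutation p = 1.0). The median percentile was 78.0 ± 10.5 in control and 81.7 ± 9.77 in H2O2, a difference of 3.73 points (exact two-sided permutation p = 0.667). With 2 against 2 libraries the smallest p these tests allow is 0.3333, so neither could pass 0.05. The median difference in bases was 45 bp in the other direction without control replicate 1, and the difference in percentile was -3.72 without control replicate 2 and -3.18 without H2O2 replicate 2.

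In single regions both libraries of a group could lie above both of the other, and this occurred in both directions. With 2 libraries per group such an order also arises by chance, so these counts do not show that a region changed. Both control libraries had more bases than both H2O2 libraries in 50 of the 195 regions (25.6%), and both H2O2 libraries had more in 31 (15.9%). By percentile the counts were 25 (12.8%) with control above and 56 (28.7%) with H2O2 above, which are ranks within lists of different length and show no change in level. By number of peaks they were 2 (1.03%) and 9 (4.62%). The 50 regions with more control bases had a median width of 2696.5 bp, 45 of them (90.0%) overlapped a protein-coding gene and 6 were centromere-proximal. The 31 with more H2O2 bases had a median of 681 bp, 18 (58.1%) overlapped such a gene and 19 were centromere-proximal. These are counts within the same 195 regions, and no test was made of single regions.

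The examples that follow, 4 with the largest ratios of control to H2O2 bases and 2 with the smallest, were picked after their values were seen. At sqd, which encodes an RNA-binding protein, peaks covered 4122 and 3439 bp in control against 308 and 327 bp in H2O2 (chr3R:13641985-13646197). The region over CtsL1, a cathepsin gene, with CG42806 and PheRS-m, had 7719 and 7455 bp in control against 249 and 1032 bp in H2O2 (chr2R:13960670-13968388). At cwo, a clock transcription factor gene, they covered 8353 and 871 bp in control against 539 and 264 bp in H2O2, so 1 control library carried most of the difference. Ten-m, a teneurin cell adhesion gene, had 6058 and 3206 bp in control against 456 and 427 bp in H2O2 in 1 of its regions (chr3L:22332020-22338077). In the other direction Snap25, a gene of vesicle fusion, had 569 and 1083 bp in control against 3259 and 2993 bp in H2O2 (chr3L:24123928-24127516), in a centromere-proximal part of 3L. At kst, the gene of the heavy beta-spectrin, the values were 409 and 260 bp in control against 1263 and 841 bp in H2O2 (chr3L:3364254-3365689). In each of these 6 regions the groups did not overlap, which picking by the ratio of the same bases favours.

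**Figure D4:**
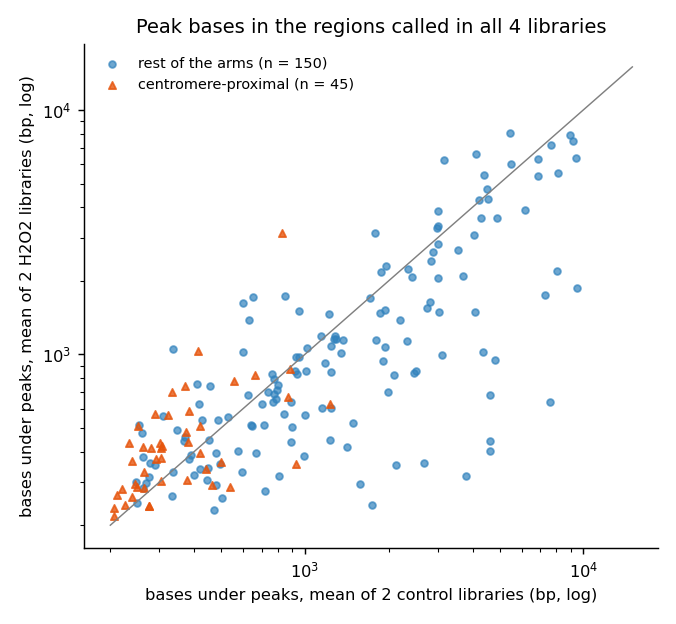
Bases under peaks in the 195 regions called in all 4 libraries, as the mean of 2 H2O2 libraries (y axis, bp, log scale) against the mean of 2 control libraries (x axis, bp, log scale), with the line of equal values. Triangles are the 45 centromere-proximal regions, which lie mostly above or near the line, and many of the widest control regions lie below it.

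The shared regions overlapped 462 of 13922 protein-coding genes (3.32%), and the regions of all 4 libraries overlapped 173 (1.24%). These counts use the merged span, so a gene need not lie under a peak of every library that called its region. The gene rush, under a region of all 4 libraries, was covered over 97.0% and 100% in control and over 0% in both H2O2 libraries. A single region was found at 362 of the 462. The median length of the 462 genes was 7260 bp against 2163 bp for all protein-coding genes, and a longer gene offers more room for a region. As merged spans, the regions covered the whole body of 43 genes and at least 50% of the body of 139, whose median length was 2500 bp.

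Several genes held a run of regions. CG31145 had 16 (6 of all 4 libraries), which filled the 200 kb window with the most shared regions, 23.6 to 23.8 Mb of 3R. MFS17 and Ten-m had 11 each, DIP-lambda, of the immunoglobulin superfamily, and Myo81F 10 each, Jupiter 8, lovit 7 and kst 6, while CG40006, Hml, Tet, klar and vir-1 had 5 each. In a window at 0 to 0.2 Mb of 2R, none of the 13 shared regions overlapped a protein-coding gene. Neighbouring shared regions lay a median of 36196 bp apart, and 136 of 746 gaps were under 2000 bp, so many regions of a run lay close together.

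The heat shock and chaperone list had the highest share of its genes under shared regions, 17 of 30 (56.7%) against 3.32% of all protein-coding genes, and 12 under a region of all 4 libraries. Peaks covered DnaJ-1, a co-chaperone gene, over 100% and 100% of its body in control and 91.8% and 100% in H2O2. Hsp68, an inducible Hsp70-family gene, was covered over 83.6% and 100% in control against 85.6% and 98.0% in H2O2. The small heat shock gene Hsp27 was covered over 30.5% and 80.8% in control against 17.1% and 79.5% in H2O2, so replicates differed more than groups. Hsp22, Hsp110, Droj2 and the copy Hsp70Bb lay only under regions that lacked H2O2 replicate 1. Hsp22 shares its span with CG4456, so 1 region counted for both. The 17 also include several near-identical Hsp70 copies, whose reads may not be separable, and small heat shock genes that are neighbours on 3L. They are therefore not 17 independent genes.

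**Figure D5:**
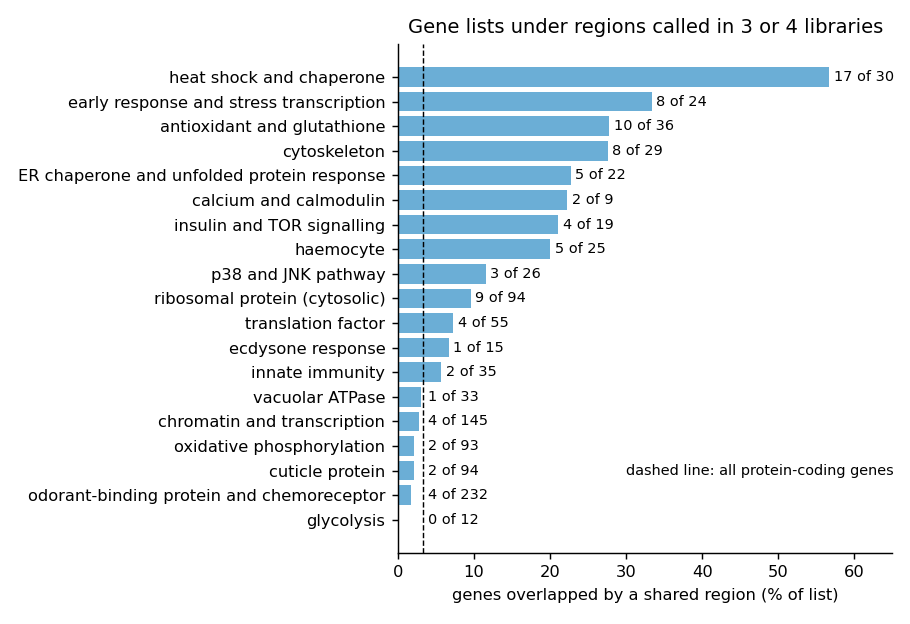
Share of the genes of each of 19 lists that a region called in 3 or 4 libraries overlapped (x axis, percent), with the counts beside the bars. The dashed line marks all protein-coding genes at 3.32%, and heat shock and chaperone genes stand farthest from it at 56.7%.

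Early response and stress transcription genes numbered 8 of 24 (33.3%): Xrp1, scyl, the JNK phosphatase gene puc, the translation inhibitor gene Thor, the Fos gene kay, Myc, luna and the cell death gene hid. Only Xrp1, Thor and kay had a region of all 4 libraries. The antioxidant and glutathione list had 10 of 36 (27.8%), 8 of them under regions of all 4 libraries, among them Pgd of the pentose phosphate pathway, the glutathione transferase genes GstE6, GstE7 and GstE8, which share 1 stretch of 2R, the thioredoxin gene Trx2 and the thioredoxin reductase gene Trxr1. Pgd was covered over 81.2% and 84.2% in control against 79.5% and 94.6% in H2O2. cnc, the fly Nrf2 gene that drives antioxidant genes, was covered over 5.07% and 6.24% in control against 2.08% and 1.28% in H2O2. The peroxiredoxin gene Prx2 lacked H2O2 replicate 1, with 19.3% and 100% in control and 36.6% in H2O2 replicate 2.

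Cytoskeleton genes numbered 8 of 29 (27.6%), 7 of them under regions of all 4 libraries, with betaTub56D covered over 97.1% and 95.2% in control against 86.5% and 79.5% in H2O2. Genes of endoplasmic reticulum chaperones and the unfolded protein response numbered 5 of 22 (22.7%), namely Xbp1, the disulphide isomerase gene Pdi, Hsc70-3 (the fly BiP), Thor and the Hsp90-family gene Gp93. Gp93 was covered over 56.9% and 73.8% in control against 62.7% and 94.5% in H2O2. The calcium list had 2 of 9, Cam and the calcineurin regulator gene sra. Insulin and TOR signalling had 4 of 19 (ImpL2, Thor, Lk6 and Pdk1), and the haemocyte list 5 of 25, with zfh1, the laminin gene LanA, the GATA cofactor gene ush, the clotting factor gene Hml and the matrix gene Ppn. LanA was covered over 62.1% and 68.2% in control against 7.57% and 31.6% in H2O2.

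Of the genes of the p38 and JNK list 3 of 26 lay under a shared region (11.5%), and none of the p38 genes did. p38a had peaks over 13.1% of its body in control replicate 1 and over 0% in the other 3 libraries, and p38b and p38c had none in any library. kay, which encodes the fly Fos, was covered over 40.7% and 14.9% in control against 30.9% and 29.1% in H2O2. Its partner gene Jra, the fly Jun, was covered over 75.1% and 50.4% in control and over 0% in both H2O2 libraries, and so lay outside the shared regions. puc was covered over 71.9% and 5.48% in control, 0% in H2O2 replicate 1 and 30.6% in H2O2 replicate 2. The third gene was sty, an inhibitor of receptor tyrosine kinase signalling, whose 2 regions lacked H2O2 replicate 1.

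Ribosomal protein genes numbered 9 of 94 (9.57%), 6 of them under regions that lacked an H2O2 library. Of all 752 shared regions, 223 lacked an H2O2 library, and whether these few genes differ from the rest was not tested. RpL3 was covered over 100% and 100% in control against 70.7% and 84.7% in H2O2, and sta over 97.2% and 97.5% in control against 30.6% and 80.2% in H2O2. RpS30, the third under a region of all 4 libraries, was covered over 48.4% and 95.0% of its body in control and over 0% in both H2O2 libraries, whose peaks lay elsewhere in its region of 2827 bp. RpL4, RpS2, RpS7 and RpS20 lay under regions that lacked H2O2 replicate 1, and RpL41 under one that lacked H2O2 replicate 2. Of these, RpS20 and RpL41 were each covered over 100% in both control libraries and over 0% in both H2O2 libraries. The H2O2 peaks of their regions lay outside the 2 genes. Translation factor genes numbered 4 of 55 (eIF4A, eEF1alpha1, eIF4EHP and eEF2). eEF1alpha1, the elongation factor gene, was covered over 82.4% and 82.4% in control against 56.4% and 77.2% in H2O2, and eEF2 over 98.6% and 99.9% in control, 0% in H2O2 replicate 1 and 5.95% in H2O2 replicate 2.

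The other lists had shares nearer to or below that of all genes. Innate immunity had 2 of 35 (the NF-kB genes dl and Rel), the ecdysone response 1 of 15 (ImpL2), the vacuolar proton pump 1 of 33 (Vha16-1) and oxidative phosphorylation 2 of 93 (ATPsynC and Cyt-c-p). Chromatin and transcription genes had 4 of 145 (Psc, osa, lola and mod(mdg4)), none under a region of all 4 libraries. Cuticle protein genes had 2 of 94 (Lcp65Ag3 and Cpr62Bc), odorant-binding and chemoreceptor genes 4 of 232 (Ir41a, Or19b, Ir93a and Or85e), and glycolysis 0 of 12. When 1 library was left out and the other 3 all had to call a region, 189 protein-coding genes were left without control replicate 1, 284 without control replicate 2, 282 without H2O2 replicate 1 and 211 without H2O2 replicate 2. The heat shock list had 17 genes without H2O2 replicate 1 and had 12 when any other library was left out, and the ribosomal list had 2, 3, 6 and 5 without control 1, control 2, H2O2 1 and H2O2 2. At q of 1e-05 or less 115 protein-coding genes were left, with 15 of the heat shock list and 2 of the ribosomal list. The early response list, with 8 genes in the shared regions, had 5, 4, 6 and 3 in the same order of libraries left out and 5 at that q. The antioxidant list had 8, 8, 10 and 8 and then 5, the cytoskeleton list 7, 7, 8 and 7 and then 6, and the unfolded protein list 4, 3, 5 and 4 and then 5. The haemocyte list had 3, 3, 5 and 4 and none at that q, insulin and TOR signalling and translation factors 2, 2, 4 and 2 and then 2 each, and the p38 and JNK list 1, 1, 3 and 1 and then 2. In the other lists, with 4 genes or fewer in the shared regions, these counts lay between 0 and 4.

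Among noncoding genes, snoRNA genes were overlapped most often, 42 of 269 (15.6%), 7 of them under regions of all 4 libraries. All 42 lay inside the span of another gene, 25 in protein-coding genes and 17 in lncRNA genes alone. Among the hosts were the noncoding snoRNA host genes Uhg4 and Uhg5 with 7 each and Uhg2 with 4, the splicing factor gene Sf3b3 with 7, RpL3 with 4, and RpS7, RpS20 and sta with 2 each, so snoRNA counts are not independent of those of their hosts. Of 1959 lncRNA genes 30 were overlapped (1.53%), and of 260 miRNA genes 12 (4.62%). mir-14, an inhibitor of cell death in flies, lay fully under peaks in all 4 libraries. mir-184 lay fully under peaks in both control libraries and outside them in both H2O2 libraries, although its region was called in all 4. mir-ban (bantam), a promoter of growth, lay under peaks in both control libraries alone. None of the 290 tRNA genes and none of the 98 rRNA genes on the arms were overlapped by a shared region.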

How the data were processed

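P-p38 ChIP peak lists of 4 libraries were analysed (control and H2O2, 2 each). The submitters' processing notes name Picard, MACS2 and build dm6, with the versions, the options and the library used as background not given in the sources used here. Each deposited peak has a score, a fold enrichment (a linear ratio), a p-value and a q-value on the -log10 scale, and a summit. The lowest -log10 p was 2.00 to 2.01 and no peak was narrower than 200 bp. Peaks on 6 arms (17755 of 17927) were merged as described above. Read depth is unknown, so its effect on the number of peaks per list was not tested.

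Genes came from the RefSeq table of Release 6, with 13922 protein-coding genes on the arms and neither strand nor exons, and a gene counted when a region overlapped its span by 1 bp. A gene's covered percent uses all peaks of a library over its span. The genome sequence and motif searches were not used here. Regions and gene lists were chosen with earlier results of these data known. Of 352 entries in 19 lists 4 were unmatched, and the ribosomal name pattern was widened after the files were seen. Named regions were the 15 strongest of all 4 libraries and 5 per missing library by lowest percentile, the 5 widest and 5 narrowest, up to 4 members per list, 6 pathway genes and 2 regions outside the rule. Other names were chosen after their values were seen. A gene counted in the lists is not reported here by name.

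Libraries were compared by exact two-sided permutation. Alternatives were lists of equal length, a q of 1e-05 or less, summits within 100 bp, a reciprocal overlap of 50%, peaks over 1000 bp left out, each library left out, summits inside genes, a replicate block and, added later, centromere-proximal parts left out. Python 3.11.15, pandas 2.3.3, numpy 2.4.6 and scipy 1.17.1 were used, and the merging and counting were tested on simulated data.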

Additional observations from a re-analysis of the deposited data

Results flagged for a closer look

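Peaks outside the 6 arms, which no comparison here uses, made up 1.55% of the list of H2O2 replicate 1 (101 of 6535) and 0.839% of that of H2O2 replicate 2 (34 of 4053). The control lists had 0.668% (29 of 4343) and 0.267% (8 of 2996), so both H2O2 shares were above both control shares. The difference was not tested, and no shared region rests on these peaks.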

How the results depend on the processing

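The number of shared regions was 124 at q of 1e-05 or less, 435 with lists of equal length, 311 with summits within 100 bp and 351 with a reciprocal overlap of 50%. The regions of all 4 libraries then numbered 44, 115, 57 and 85, and 91 with peaks over 1000 bp left out. The share of 3-library regions that lacked an H2O2 library, 40.04%, was 53.8%, 51.9%, 34.3% and 33.8% under these 4 settings, 29.7% with wide peaks left out and 51.2% with centromere-proximal parts left out, a setting added after the data were seen. It thus lay on both sides of 50%. The share on protein-coding genes was 65.3% with summits within 100 bp, 66.4% with reciprocal overlap, 69.0% without wide peaks and 91.5% without proximal parts. When a library was left out and the remaining 3 all had to call a region, the shared regions numbered 271 to 467 and the gene share was 69.6% to 86.9%.

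The difference in peak bases (H2O2 minus control) turned from -115 to 150.5 bp at q of 1e-05 or less and to 51.5 bp with reciprocal overlap, and ran from -275 to 45 bp with 1 library left out. It was -222 bp with lists of equal length and -376 bp without proximal parts. The difference in percentile turned from 3.73 to -5.19 without proximal parts and ran from -3.72 to 11.2 with 1 library left out, being -3.18 without H2O2 replicate 2. It was 7.69 with lists of equal length, 12.6 with summits within 100 bp, 15.1 with reciprocal overlap and 16.8 without wide peaks. The lowest permutation p of any of these settings was 0.3333, the smallest possible. The causes were not tested. Nothing in the labels says whether the replicate numbers, which both groups carry, pair the libraries. With a replicate block the differences were -115 bp and 3.73 points, each with an exact permutation p of 1.0. In all, 22 values recomputed under the alternatives kept the direction of a difference, stayed within 1.5 times of a count or stayed within the Wilson interval of a share. Another 27 counts or shares moved beyond those limits, and 6 differences reversed direction, so most recomputed values changed. Neither comparison could pass 0.05 with 2 libraries per group, and unknown read depth limits what the number of regions per library shows.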
